A study of Arabidopsis thaliana with 8 samples.

Results

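The XTH genes of Arabidopsis thaliana encode xyloglucan endotransglucosylase/hydrolases, and the 33 loci XTH1 to XTH33 were read here from RNA-seq of whole seedlings 5 days old. The members were taken by locus number alone, and 30 of the 33 were among the 22951 genes of the expression table. XTH1, XTH2 and XTH3 were not among them and are not analysed here. The groups were wild-type Col-0 (3 libraries), a line labelled as overexpressing MIR394A (MIR394A_OE, 2 libraries) and bin2-1 (3 libraries), all in the Col-0 background. BIN2 is a kinase that switches off brassinosteroid signalling, and bin2-1 is a dominant mutant form of it that stays active. MIR394A gives the microRNA miR394, and the study asks how miR394 and its target act on brassinosteroid signalling in the growth of the hypocotyl. Seeds of all groups were chilled at 4 °C for 4 days and grown at 22 °C with 16 h light and 8 h dark. The sources used here do not state which promoter drives MIR394A, how many lines were pooled or the zygosity of bin2-1.

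Xyloglucan is the main hemicellulose of the primary wall in these plants and coats or bridges cellulose microfibrils. XTH enzymes cut a xyloglucan chain and join the cut end to another chain, or in a few members to water, so they can loosen, build or trim the network while cells grow. The genes differ in organ, in hormone response and in response to touch, cold or darkness, and XTH22, also called TCH4, is known as a gene induced by touch, auxin and brassinosteroid. The family is usually split into group I (XTH1 to XTH11), group II (XTH12 to XTH26), group IIIA (XTH31 and XTH32, in which cutting by water predominates) and group IIIB (XTH27 to XTH30 and XTH33).

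Depth, estimated from the steps between low values, was 9620000 to 11240000 reads per library. A level of 0.267 to 0.312 FPKM (fragments scaled to transcript length and to library depth) is then worth 3 reads for a transcript of 1 kb. This floor covers counting error only. Markers of root and shoot were both present, which fits the label of whole seedlings: summed FPKM of 12 root and root hair markers was 2735 to 3864, and that of 8 photosynthesis markers was 20302 to 28370. The root sum was nearly all PYK10, at 2600 to 3765 FPKM. The next highest root marker, PRP3, was at 27.49 to 83.55 FPKM. NRT2.1 was the root marker nearest to absence, at 0 to 0.38 FPKM and at 0 in MIR394A_OE replicate 2. Libraries within a group did not lie close together. On the first principal component, with 43.1% of the variance, MIR394A_OE replicate 1 lay at -54.2 and replicate 2 at -2.9, and Col-0 replicate 1 at -35.4 against -15 and 2.7 for the other Col-0 libraries. Overexpression of MIR394A cannot be checked from these values, and gene levels do not show the bin2-1 point mutation itself. The labels do not state that the replicates are independent sowings. The p-values therefore reflect the spread among these libraries only, and that spread may be technical. In whole seedlings, fewer cells of a type and less RNA per cell cannot be told apart.

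The coding sequences show which members are near copies, which bears on how reads can be assigned. The stretch that codes for the catalytic motif is shown for the members that lead the results, other than XTH4. It was read from RefSeq's TAIR10.1 annotation, 5′ to 3′ on the coding strand. Capitals mark bases that differ from XTH22, and 31 of 33 members held a single match to the motif pattern.
XTH22, chr5:23307839-23307865, minus strand: gacgagatagatttcgagtttttaggg
XTH23, chr4:13129072-13129098, plus strand: gacgagatTgaCttTgagttCttGggA
XTH24, chr4:14820042-14820068, minus strand: gaTgagatTgatttTgagttCttGggT
XTH18, chr4:14826569-14826595, minus strand: gaTgagatTgatttcgagttCttaggA
XTH19, chr4:14829561-14829587, minus strand: gaTgagatTgatttcgagtttttGggg
XTH17, chr1:24257682-24257708, plus strand: gaTgagatCgatttcgagttCttGggA
XTH27, chr2:385891-385917, plus strand: gaTgagatagatttTgagtttCtTggT
XTH30, chr1:11576260-11576286, plus strand: gacgagTtagaCAtAgagtttCtaggg

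The leading members are XTH22 (AT5G57560), XTH23 (AT4G25810), XTH24 (AT4G30270), XTH18 (AT4G30280), XTH19 (AT4G30290), XTH17 (AT1G65310), XTH27 (AT2G01850), XTH30 (AT1G32170) and XTH4 (AT2G06850). Across these 27 bases XTH23 differed from XTH22 at 6 positions, although the pair shares 79.2% of the aligned coding bases. The highest coding identities in the family were 89.4% for XTH12 and XTH13 and 87.6% for XTH18 and XTH19. XTH18 shared 85.6% with XTH17 and with XTH20. Even so, identical stretches of 50 bases between the transcripts were few: XTH18 and XTH19 shared 1.6% of the 50-base windows of XTH18, XTH17 and XTH19 shared 0.2%, and no other pair shared any. XTH15 overlaps AT4G14120 on the opposite strand by 382 bases, and its level is uncertain if strand was not used.

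Several members sit side by side. On chromosome 5, XTH13, XTH25 and XTH22 follow each other with gaps of 686 and 565 bases and no gene between them, and XTH12 lies next to them with 1 gene in between. On chromosome 4, XTH24, XTH18 and XTH19 are neighbours, and XTH23 and XTH14 lie 363 bases apart. Some neighbours were close in level and others were far apart. XTH24 and XTH18 had Col-0 means of 540.3 ± 256 and 664 ± 325 FPKM (SD, n = 3 each). XTH25 lay at 0.09 to 0.97 FPKM over the 8 libraries, next to XTH22 at 54.1 to 1618 FPKM. XTH14, a gene of roots, lay at 23.3 to 41.6 FPKM beside XTH23 at 18.2 to 362 FPKM, and these ranges overlap.

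XTH22 was highest, at 1107 ± 447 FPKM (SD, n = 3), followed by XTH18 at 664 ± 325, XTH4 at 661 ± 174 and XTH24 at 540.3 ± 256 (SD, n = 3 each). XTH22 was the top member in each Col-0 library, narrowly so in replicate 3 (789 FPKM against 775 for XTH4). The order of XTH18, XTH4 and XTH24 differed between the Col-0 libraries. XTH24 was first described as a meristem gene, and XTH18 is known from roots together with XTH17, XTH19 and XTH20. A middle tier held XTH23 (229 ± 140 FPKM), XTH7 (209 ± 41.6), XTH27 (143 ± 15.9) and XTH9 (123 ± 19.3). XTH19, XTH16, XTH17, XTH28, XTH31, XTH14, XTH6, XTH8, XTH30 and XTH15 had means of 26.9 to 92.8 FPKM, and the next 9 members, from XTH32 to XTH10, 1.53 to 8.09 FPKM. XTH25, XTH11 and XTH29 lay at 0.08 to 0.97 FPKM in Col-0, where few reads stand behind a value. These 3 fell under the minimum mean of 1 FPKM, so 27 of the 33 members were tested.

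**Figure D1:**
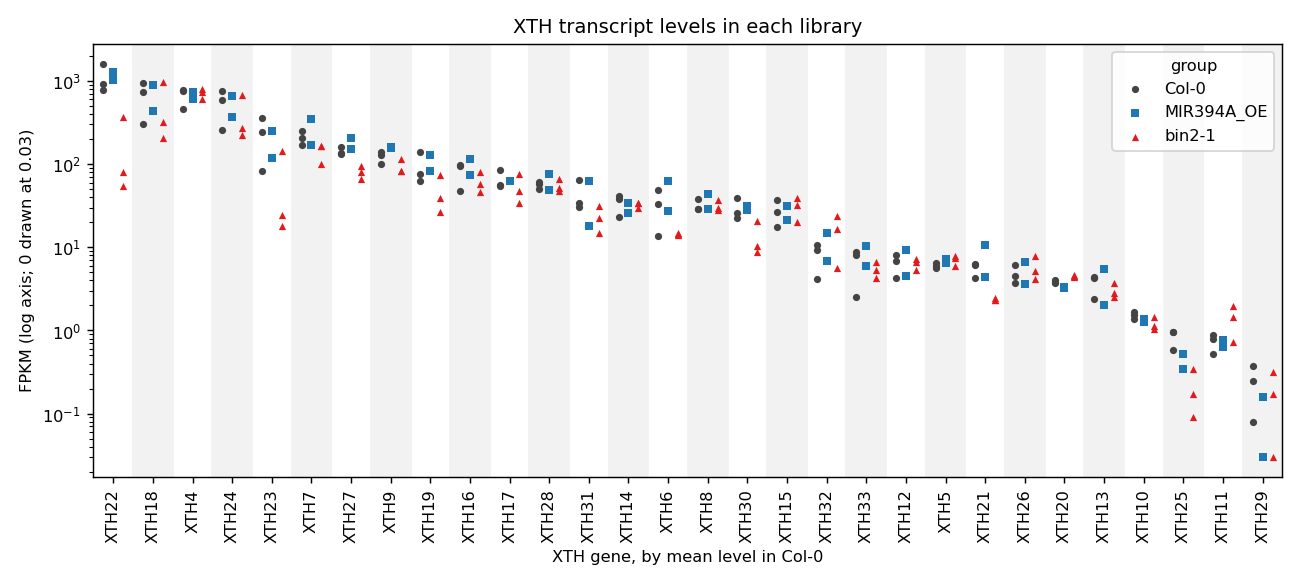
FPKM of the 30 listed XTH genes in each of the 8 libraries, on a log axis, ordered by their mean in Col-0; symbols give the group. The bin2-1 values of XTH22 lie at 54.1 to 366 FPKM, below the Col-0 values of 789 to 1618, while XTH4 overlaps in all groups.

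How the family stands when brassinosteroid signalling is held back was read from bin2-1 and Col-0. XTH22 showed the largest difference: its level was 54.1, 81.5 and 366 FPKM in the bin2-1 libraries against 913, 1618 and 789 FPKM in Col-0. The groups did not overlap, and bin2-1 replicate 3 stood well above the other bin2-1 libraries. The log2 fold change on the log2(FPKM + 1) scale was -3.15 (SE 0.61, 95% interval -4.52 to -1.78), an 8.89-fold lower level, and it missed the threshold over all genes (limma, adjusted p = 0.0775). Without bin2-1 replicate 3 it was -3.97 and passed (adjusted p = 0.0102), and with any of the other 7 libraries left out the adjusted p lay above 0.05, up to 0.378.

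No XTH gene passed over all genes: limma called 0 of the 27 tested members, where 0.112% of all 18798 genes tested were called. At an unadjusted p under 0.05, 6 of 27 were lower (22.2%), against 6.67% of all genes, and 0 were higher, against 11.1%. At an adjusted threshold of 0.10, chosen after seeing the data, XTH22 and XTH27 passed, where 1.56% of all genes did. In these counts the 27 are the members above the minimum mean, not the family as a whole. Values were lower than in every Col-0 library for 5 of 27 members, XTH7, XTH21, XTH22, XTH27 and XTH30, against 8.47% of all genes. Only XTH20 was higher without overlap, against 20.2% of all genes. The log2 fold change was below 0 for 20 of 27 members against 36.6% of all genes, with a median of -0.35 where that of all genes was 0.10. The XTH median was -0.16 without bin2-1 replicate 1, -0.17 without bin2-1 replicate 2, -0.17 without Col-0 replicate 2 and -0.20 without Col-0 replicate 3. Rescaling by the median of ratios brought the median of all genes to 0.00 and that of the XTH genes to -0.46.

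XTH23, the closest coding relative of XTH22, was at 18.2, 24.2 and 145 FPKM in bin2-1 and at 83.5, 362 and 241 FPKM in Col-0. Here the groups overlapped, because bin2-1 replicate 3 exceeded Col-0 replicate 1. Its log2 fold change was -2.24 (SE 0.78, limma, adjusted p = 0.199). Among markers of the shoot, 7 of 8 photosynthesis genes were below 0 (36.6% of all genes), and 5 of 8 lay below every Col-0 library (8.47% of all genes). At an unadjusted p under 0.05, 1 was lower (6.67% of all genes), and 0 were called by limma (0.112% of all genes). Their summed levels were 20302 to 26676 FPKM in bin2-1 and 24426 to 27784 FPKM in Col-0, and none was at 0. Their sum was lowest in bin2-1 replicate 3, where XTH22 and XTH23 were highest in bin2-1. RBCS1A, the largest part of the sum, was at 13844, 13568 and 8733 FPKM in bin2-1 replicates 1, 2 and 3. CA1 was highest in bin2-1 replicate 3, at 1764 FPKM, and RCA and PSAF were not lowest there. Of 11 tested root and root hair markers, 5 were above 0 and 6 below (36.6% of all genes below). Of these, 0 were called by limma (0.112% of all genes). RSL4 alone (0.93, SE 0.23) was higher at an unadjusted p under 0.05 (11.1% of all genes) and above every Col-0 library (20.2% of all genes). The part of these shoot and root markers in the XTH differences was not tested.

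In group IIIB, XTH27 and XTH30 were lower without overlap and the other 2 tested members overlapped. XTH27, known from the formation of veins and tracheary elements, was at 79.7, 66.3 and 94.4 FPKM in bin2-1 against 131, 161 and 137 FPKM in Col-0. No library overlapped, but the gap from 94.4 to 131 FPKM was only somewhat wider than the range within either group. Its log2 fold change of -0.84 (SE 0.18) had an adjusted p of 0.0901 in limma. XTH30 was at 8.88, 10.32 and 20.83 FPKM in bin2-1 against 25.9, 39.5 and 22.7 FPKM in Col-0, again without overlap, although bin2-1 replicate 3 came close to Col-0 replicate 3. The log2 fold change of XTH30 was -1.14 (SE 0.31, limma, adjusted p = 0.125), and it passed without bin2-1 replicate 3 (-1.48, adjusted p = 0.0349). XTH28, a gene linked to growth of stamen filaments, was at 65.5, 51.1 and 47.5 FPKM in bin2-1 and at 61.4, 50.4 and 58.0 FPKM in Col-0 (log2 fold change -0.06, 95% interval -0.50 to 0.39). XTH33, which carries a membrane anchor, was at 4.26 to 6.68 FPKM against 2.53 to 8.76 FPKM (-0.10, 95% interval -0.95 to 0.75). Both overlapped fully. Summed over the group, IIIB reached 132 to 170 FPKM in bin2-1, below the 221 to 260 FPKM of Col-0.

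Among the other group II genes, XTH21, linked to growth of roots, was at 2.34, 2.49 and 2.35 FPKM in bin2-1 and at 6.26, 6.17 and 4.32 FPKM in Col-0. The bin2-1 libraries agreed closely and lay under every Col-0 library (log2 fold change -0.94, SE 0.27, limma, adjusted p = 0.139). XTH19 was at 26.3, 39.7 and 74.9 FPKM against 77.0, 139 and 62.3 FPKM, so that bin2-1 replicate 3 overlapped Col-0 (log2 fold change -1.01, SE 0.40, limma, adjusted p = 0.237). XTH18 was at 205, 324 and 974 FPKM in bin2-1 against 306, 941 and 745 FPKM in Col-0, and XTH24 at 223, 274 and 683 against 260.3, 597 and 764 FPKM. With such spread their differences of -0.57 (95% interval -1.92 to 0.78) and -0.50 (95% interval -1.62 to 0.62) could be neither called nor bounded closely. XTH15, linked with XTH17 to petiole growth in shade, was at 20.2, 32.4 and 39.0 FPKM in bin2-1 and at 17.3, 26.6 and 36.7 FPKM in Col-0 (0.19, SE 0.31). XTH17 was at 34.6, 47.1 and 76.8 FPKM against 54.1, 86.3 and 56.3 FPKM (-0.35, SE 0.28). In both, the bin2-1 range covered much of the Col-0 range. XTH16 was at 58.2, 45.9 and 80.3 FPKM against 47.7, 94.7 and 98.5 FPKM (-0.35, SE 0.31), and XTH14 at 29.4, 34.5 and 34.1 against 23.3, 38.0 and 41.6 FPKM (-0.03, SE 0.22). They overlapped as well. XTH20 was at 4.37, 4.53 and 4.6 FPKM in bin2-1 and 3.75 to 4.00 FPKM in Col-0, a small difference (0.18, SE 0.15, limma, adjusted p = 0.546) and no overlap.

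In group I, XTH6 was at 14.7, 14.3 and 14.1 FPKM in bin2-1 and at 49.2, 13.8 and 33.1 FPKM in Col-0. Col-0 replicate 2 was as low as bin2-1, so the groups overlapped (log2 fold change -0.94, SE 0.43, limma, adjusted p = 0.290). XTH7 was at 167, 167 and 99.7 FPKM in bin2-1 against 253, 171 and 204 FPKM in Col-0, and XTH9, which acts with XTH4 in stem wood, at 115, 83.2 and 83.6 against 102, 130 and 139 FPKM. XTH7 did not overlap, though by a narrow margin, while XTH9 did. Log2 fold changes were -0.55 (SE 0.30) and -0.39 (SE 0.18). XTH8 was at 37.4, 29.4 and 28.1 FPKM against 28.8, 28.8 and 38.0 FPKM and overlapped. XTH4, the third highest member in Col-0, was at 605, 747 and 808 FPKM in bin2-1 and at 461, 748 and 775 FPKM in Col-0, with a difference of 0.15 (95% interval -0.36 to 0.66). In group IIIA, XTH31 was at 31.1, 22.7 and 14.8 FPKM in bin2-1 against 64.5, 30.4 and 34.5 FPKM in Col-0 (-0.87, SE 0.46), and XTH32 at 23.8, 16.5 and 5.68 against 10.8, 4.19 and 9.33 FPKM (0.73, SE 0.50). Both overlapped between the groups, and neither passed (limma, adjusted p = 0.353 and 0.460).

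**Figure D2:**
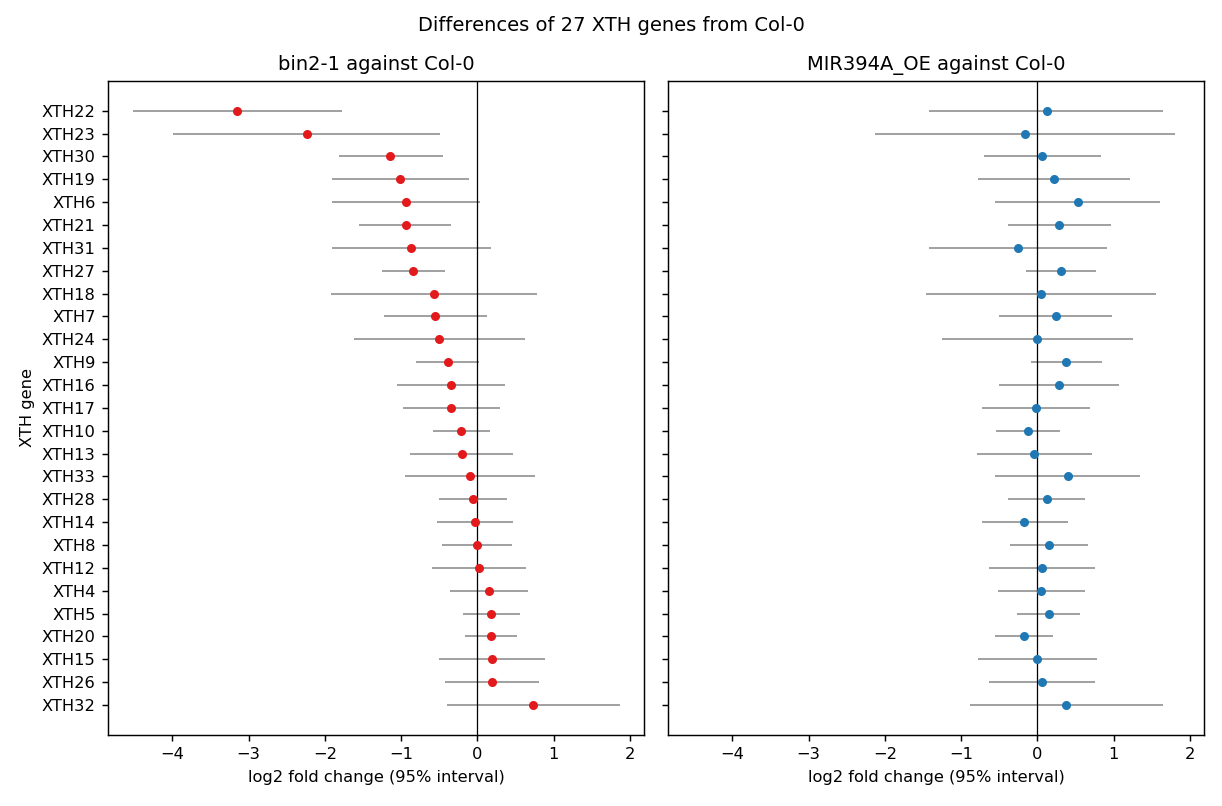
Log2 fold changes with 95% intervals for the 27 tested XTH genes, against Col-0, in bin2-1 (left) and in MIR394A_OE (right), ordered by the difference in bin2-1; both panels share the Col-0 libraries. XTH22 lies at -3.15 in bin2-1 and at 0.12 in MIR394A_OE, and 20 of the 27 points lie below 0 in bin2-1.

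Summed over the 30 listed members, the libraries held 3003, 5327 and 4324 FPKM in Col-0, 4125 and 4596 FPKM in MIR394A_OE and 1850, 2147 and 3734 FPKM in bin2-1 (2577 ± 1013 against 4218 ± 1166 FPKM in Col-0, SD, n = 3 each). The third bin2-1 library exceeded the lowest Col-0 library, so the sums overlapped. XTH22 made up 18.2% to 30.4% of the sum in Col-0, 31% and 22.2% in MIR394A_OE, and 2.92%, 3.80% and 9.80% in bin2-1. Without XTH22 the sums were 1796 to 3368 FPKM in bin2-1 and 2090 to 3710 FPKM in Col-0. XTH22 was the top member in each Col-0 and MIR394A_OE library, XTH4 in bin2-1 replicates 1 and 2, with 32.7% and 34.8%, and XTH18 in bin2-1 replicate 3, with 26.1%. Group I sums were 947 to 1051 FPKM in bin2-1 and 901 to 1197 FPKM in Col-0, whereas group II sums were 688 to 2499 against 1806 to 3932 FPKM.

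**Figure D3:**
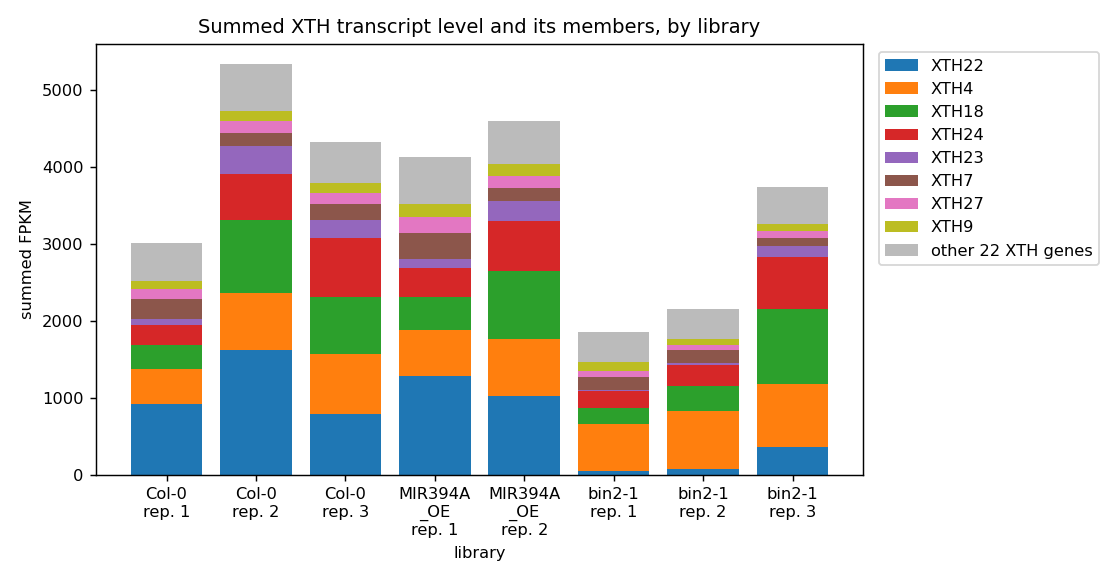
Summed FPKM of the 30 listed XTH genes per library (bar height, linear axis from 0), divided into the 8 members named in the legend and the remaining 22. XTH22 is the largest segment in all Col-0 and MIR394A_OE libraries and a thin one in bin2-1.

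Replicates lay far apart for some members and close together for others. In bin2-1, the highest library was 7.96 times the lowest for XTH23, 6.76 times for XTH22 and 4.74 times for XTH18, while the ratio was 1.05 for XTH20 and XTH6. Replicate 1 had the lowest value in every group for 5 of 27 members, XTH4, XTH15, XTH18, XTH23 and XTH24, against 10.6% of all genes. It had the highest value in every group for 5 others, XTH6, XTH7, XTH28, XTH31 and XTH32, against 11.7% of all genes. XTH18, for example, was at 306 FPKM in Col-0 replicate 1, 434 in MIR394A_OE replicate 1 and 205 in bin2-1 replicate 1, and XTH31 at 64.5, 63.2 and 31.1 FPKM in the same libraries. The labels do not tell whether equal numbers mark a shared sowing or day.

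Whether overexpression of MIR394A goes with a difference in these genes was read from MIR394A_OE and Col-0. XTH22 was at 1279 and 1020.1 FPKM in MIR394A_OE, inside the Col-0 range of 789 to 1618 FPKM. Its log2 fold change was 0.12 with a 95% interval of -1.42 to 1.65, so a change of up to about that size in either direction cannot be told from none. Limma called 0 of 27 members, where 0.0106% of all genes were called, and 0 of 27 had an unadjusted p under 0.05 in either direction, where 3.15% of all genes were higher and 1.63% lower. No XTH gene passed at 0.10 either (0.0160% of all genes). The XTH median was 0.06 and that of all genes 0.04, and 8 of 27 members lay below 0, against 44.4% of all genes.

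The largest difference was that of XTH6, at 63.2 and 26.97 FPKM in MIR394A_OE against 13.8 to 49.2 FPKM in Col-0 (log2 fold change 0.53, SE 0.48, limma, adjusted p = 0.874). Its replicates stood apart by more than the difference, and without MIR394A_OE replicate 1 the value was -0.07. XTH9 had the smallest p of the family, at 160.4 and 158.1 FPKM against 102, 130 and 139 FPKM in Col-0. Both libraries lay above Col-0 and close to each other (log2 fold change 0.38, SE 0.20, limma, adjusted p = 0.873). It was the only tested member above every Col-0 library (10.9% of all genes), and XTH10 and XTH20 lay below every Col-0 library (6.17% of all genes), by -0.13 (SE 0.19) and -0.18 (SE 0.17). XTH27 was at 204 and 154 FPKM, with a log2 fold change of 0.31 (95% interval -0.15 to 0.77). XTH33, XTH32, XTH21, XTH16 and XTH31 followed with log2 fold changes of 0.40, 0.38, 0.28, 0.28 and -0.26, each smaller than its SE of 0.30 to 0.56. Each of these 5 changed sign in at least 1 fit that left out a library.

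MIR394A_OE was also compared with bin2-1 directly, a comparison that shares the bin2-1 libraries with that against Col-0. XTH22 at 1279 and 1020.1 FPKM lay above all bin2-1 libraries at 54.1 to 366 FPKM (log2 fold change 3.27, SE 0.68, limma, adjusted p = 0.102), and XTH27 at 204 and 154 FPKM lay above 66.3 to 94.4 FPKM (1.15, SE 0.21, adjusted p = 0.0895). Limma called 0 of 27 members, where 0.0532% of all genes were called, and 9 of 27 had an unadjusted p under 0.05 and were higher in MIR394A_OE (33.3%), against 8.08% of all genes, and 0 were lower, against 10.9%. These were XTH6, XTH7, XTH9, XTH19, XTH21, XTH22, XTH23, XTH27 and XTH30. XTH6 was at 63.2 and 26.97 FPKM against 14.1 to 14.7 FPKM (1.47, SE 0.48), and XTH21 at 10.58 and 4.44 against 2.34 to 2.49 FPKM (1.23, SE 0.30). Values lay above every bin2-1 library for 8 of 27 (15.0% of all genes) and below for XTH20 alone (20.9% of all genes). Without MIR394A_OE replicate 2, XTH7, XTH21 and XTH27 passed (limma, adjusted p = 0.0485, 0.0165 and 0.0190), in a fit that called 2307 genes. That fit holds 1 MIR394A_OE library, which is assumed to vary like the other groups. At 0.10 over all genes XTH27 passed, where 0.399% of all genes did. The log2 fold change was below 0 for 7 of 27 members (56.2% of all genes), with a median of 0.50 that was 0.19 without MIR394A_OE replicate 1 and 0.23 without bin2-1 replicate 1. Without bin2-1 replicate 3, XTH22 passed (adjusted p = 0.0120).

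The genes whose pattern over the 8 libraries was most like that of XTH22 were PHI-1, XXT1, EXO, BME3 and AT2G27500, with Pearson's r of 0.998, 0.997, 0.995, 0.986 and 0.983 on the log2 scale. Only genes whose mean reached 5 FPKM were ranked. These r are descriptions over 8 libraries in 3 groups. With the group means removed they were 0.992, 0.993, 0.977, 0.935 and 0.969, which follows in part from picking the genes over the same libraries. PHI-1, named after a phosphate-induced tobacco gene, was at 14.96, 22.2 and 109.9 FPKM in bin2-1 and at 330, 799.5 and 337 FPKM in Col-0. EXO, an extracellular protein linked to cell expansion, was at 78.5, 84.4 and 305 FPKM in bin2-1 and at 541, 1057 and 568 FPKM in Col-0. In both genes, as in XTH22, Col-0 replicate 2 and bin2-1 replicate 3 were the highest libraries of their groups. BME3 is a GATA factor of seed germination. Differences of these 5 genes between bin2-1 and Col-0 ranged from -3.70 (SE 0.65) for PHI-1 to -1.28 (SE 0.35) for AT2G27500, with limma's adjusted p of 0.0567 to 0.130. Within the family, r with XTH22 was 0.98 for XTH30, 0.92 for XTH27, 0.91 for XTH19 and 0.90 for XTH23, and -0.05 for XTH4 and -0.69 for XTH32. With the group means removed these were 0.953, 0.677, 0.851, 0.815, 0.387 and -0.842, while XTH17 went from 0.774 to 0.953 and XTH5 from -0.117 to 0.782.

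**Figure D4:**
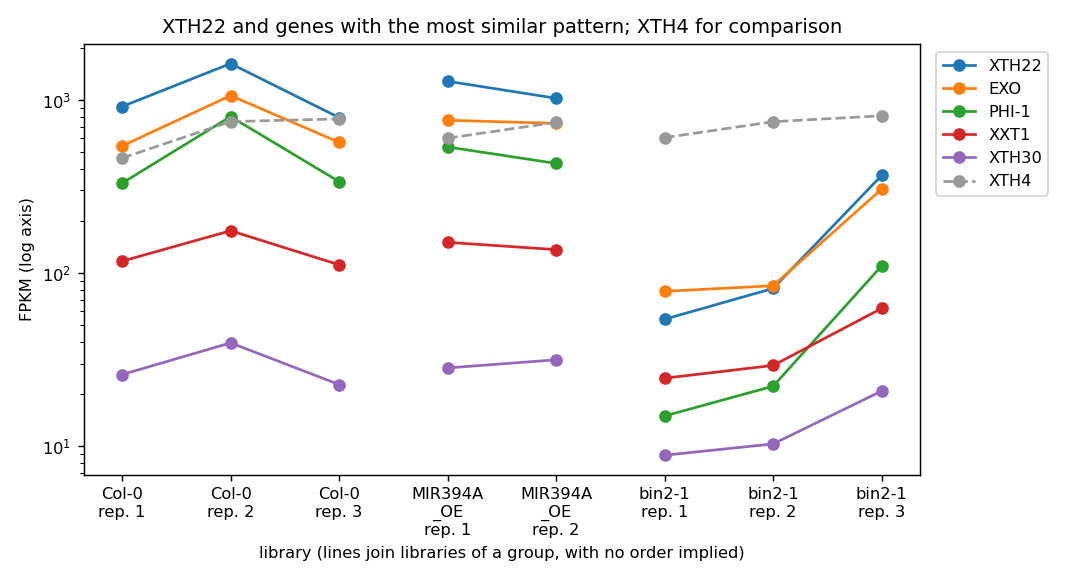
FPKM of XTH22, 3 of the genes with the most similar pattern (EXO, PHI-1, XXT1), XTH30 and XTH4 in each library, on a log axis; lines join libraries of a group and imply no order. All but XTH4 are highest in Col-0 replicate 2 among the Col-0 libraries and lowest in bin2-1 replicate 1.

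Genes that make the substrate were read from a list of 17 genes of xyloglucan synthesis, chosen with earlier results of these data known. XXT1, a xylosyltransferase that adds side chains to the glucan backbone, was at 24.7, 29.3 and 62.5 FPKM in bin2-1 and at 117, 175 and 112 FPKM in Col-0. No bin2-1 library reached the lowest Col-0 value (log2 fold change -1.86, SE 0.32, limma, adjusted p = 0.0619). CSLC4, a synthase of the backbone, was at 21.6, 24.9 and 65.7 FPKM against 74.7, 140.3 and 67.9 FPKM (-1.41, SE 0.44, adjusted p = 0.162). The other 4 backbone synthases of the list ranged from -0.48 (SE 0.44) for CSLC12 to 0.42 (SE 0.18) for CSLC5, the latter at 14.5 to 16.4 FPKM in bin2-1 against 10.07 to 12.5 FPKM in Col-0. XXT2, which acts alongside XXT1, lay at 92.0 to 93.0 FPKM in bin2-1 against 65.9 to 92.1 FPKM in Col-0 (0.31, SE 0.16), XXT3 at 2.94 to 3.92 against 1.33 to 2.30 FPKM (0.62, SE 0.19, adjusted p = 0.157). XLT2, a galactosyltransferase, was at 4.14 to 6.77 against 8.11 to 10.31 FPKM (-0.59, SE 0.21, adjusted p = 0.212). In bin2-1 against Col-0, 0 of the 17 were called by limma (0.112% of all genes). At an unadjusted p under 0.05, 3 were lower (6.67% of all genes) and 2 higher (11.1% of all genes). The median of the list was 0.11, where that of all genes was 0.10. Of 5 enzymes that trim xyloglucan side chains, 0 were called (0.112% of all genes), with differences of -0.09 to 0.25. Of these, 0 had an unadjusted p under 0.05 (6.67% of all genes lower, 11.1% higher). In MIR394A_OE against Col-0, 0 of the 17 and 0 of the 5 were called (0.0106% of all genes). At an unadjusted p under 0.05 there were also 0 of the 17 and 0 of the 5 (3.15% of all genes higher, 1.63% lower). All 5 trimming genes were below 0 in that comparison (44.4% of all genes), with a median of -0.25 (0.04 over all genes). Of these, 3 lay below every Col-0 library (6.17% of all genes). XXT1 was at 150.3 and 136 FPKM in MIR394A_OE.

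Because XTH22 is induced by touch, 18 genes known to respond to touch or wounding were read in the same libraries. This list too was chosen with earlier results of these data known, so its counts are descriptions only. In bin2-1, 17 of 18 had a log2 fold change below 0 (36.6% of all genes), with a median of -1.66 (0.10 over all genes). At an unadjusted p under 0.05, 10 were lower (6.67% of all genes), and 10 lay below every Col-0 library (8.47% of all genes). DREB26 was called by limma and fell from 130.3 ± 41.6 to 24.05 ± 11.6 FPKM (SD, n = 3 each; -2.43, SE 0.34, adjusted p = 0.0446). The call was lost with the 2 groups alone (adjusted p = 0.0710), without a filter (0.0675), without trend and robust (0.0565), without both libraries lowest on the first component (0.112) and in 6 of 8 fits that left out a library, all but those without Col-0 replicate 3 or bin2-1 replicate 3 (adjusted p = 0.0182 to 0.272 over the 8). CML37, a calmodulin-like gene, MYB44 and ERF6 had log2 fold changes of -3.42, -2.09 and -2.53 with limma's adjusted p of 0.0880, 0.0895 and 0.109. TCH2, also calmodulin-like, was at 59.2, 90.6 and 134 FPKM in bin2-1 against 367, 336 and 163 FPKM in Col-0 (-1.59, SE 0.40, adjusted p = 0.116), while TCH3 spanned 976 to 2286 FPKM in bin2-1 against 1122 to 2532 FPKM in Col-0. None of the 18 was at 0 in any library, and their summed level was 1382 to 3137 FPKM in bin2-1, 2426 to 4225 in Col-0 and 3292 to 3572 in MIR394A_OE. The part of touch or handling in the XTH22 difference was not tested.

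Over the whole list, the order of the libraries within a group could be set beside that of the XTH genes. In Col-0, 14 of the 18 touch and wound genes were highest in replicate 1 (46.1% of all genes) and 4 in replicate 2 (25.2% of all genes). Of the 27 tested XTH genes, 7 were highest in replicate 1 (25.9%) and 13 in replicate 2 (48.1%). In Col-0 replicate 3, 16 of the 18 and 5 of the 27 were lowest (44.3% of all genes). In Col-0 replicate 1, 2 of the 18 and 16 of the 27 were lowest (30.3% of all genes). Individual genes lay on both sides. TCH3, at 1122, 2532 and 1578 FPKM in Col-0 replicates 1, 2 and 3, had the order of XTH23 and XTH18. DREB26, at 144, 163 and 83.7 FPKM, had the order of XTH22, while WRKY33, at 337, 105 and 31.6 FPKM, had neither. In bin2-1, 14 of the 18 and 18 of the 27 were highest in replicate 3 (38.8% of all genes), and 14 of the 18 and 16 of the 27 were lowest in replicate 1 (42.5% of all genes). Without both libraries lowest on the first component (Col-0 replicate 1 and MIR394A_OE replicate 1) the XTH median in bin2-1 against Col-0 was -0.44, with 22 of 28 tested members below 0 and 0 called.

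**Figure D5:**
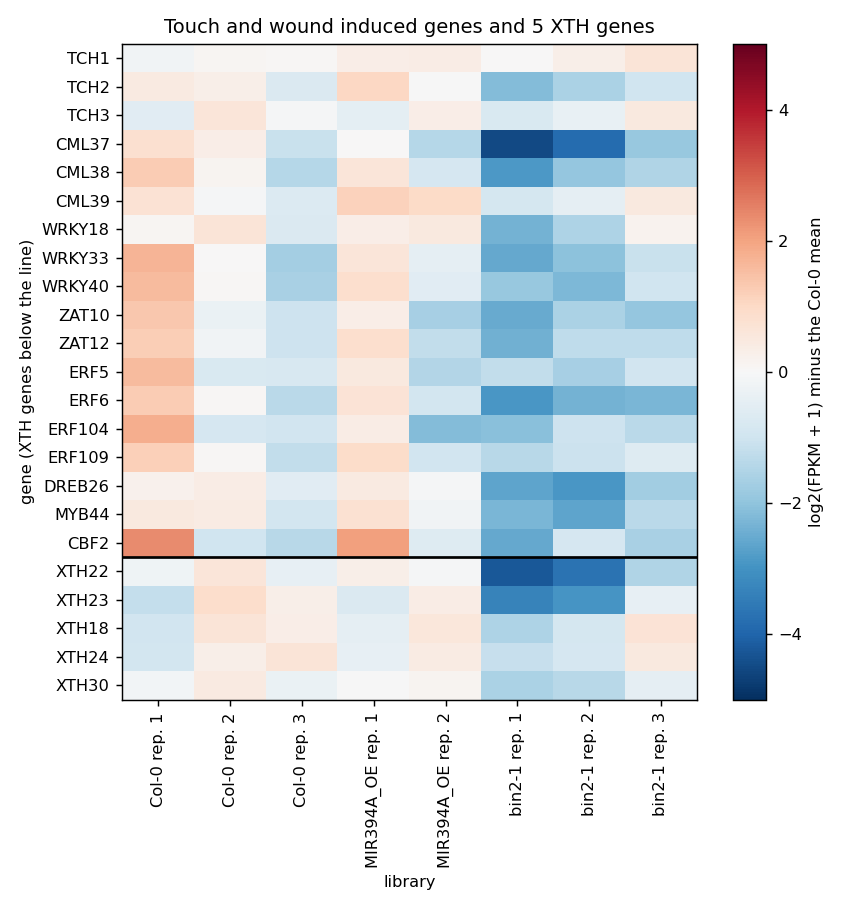
Log2(FPKM + 1) of 18 touch and wound induced genes and 5 XTH genes in each library, as the difference from the Col-0 mean (red higher, blue lower). In Col-0, 14 of the 18 touch and wound genes are highest in replicate 1 (46.1% of all genes). The other 4, DREB26, TCH1, TCH3 and WRKY18, are highest in replicate 2 (25.2% of all genes), as are XTH22, XTH23, XTH18 and XTH30. Most rows are blue in bin2-1.

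Promoters were searched because brassinosteroid factors of the BZR1 and BES1 type, which BIN2 phosphorylates, bind known short motifs. The window was the 250 bases before the RefSeq gene start, searched on both strands. The brassinosteroid response element in its forms CGTGTG and CGTGCG was found in 4 and 0 of the 33 XTH promoters, against 5.4% and 1.6% of 27443 promoters of protein-coding genes. The 4 were XTH2, XTH8, XTH23 and XTH25. The G-box CACGTG was in 0 (6.5% of all), the E-box CANNTG, which includes the G-box, in 21 (63.6%, against 55.3% of all), and the rapid stress response element CGCGTT in 3, XTH13, XTH18 and XTH20 (9.1%, against 2.6% of all). The windows of the tested members with the lowest log2 fold changes in bin2-1 against Col-0, XTH22 and XTH23, are shown with those motifs other than the E-box in capitals.
XTH22, chr5:23308681-23308930, minus strand: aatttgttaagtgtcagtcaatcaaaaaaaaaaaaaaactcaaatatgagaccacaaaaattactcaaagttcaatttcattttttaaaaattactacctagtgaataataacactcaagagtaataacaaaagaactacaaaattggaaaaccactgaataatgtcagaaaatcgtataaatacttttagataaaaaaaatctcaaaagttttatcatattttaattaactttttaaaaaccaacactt
XTH23, chr4:13128144-13128393, plus strand: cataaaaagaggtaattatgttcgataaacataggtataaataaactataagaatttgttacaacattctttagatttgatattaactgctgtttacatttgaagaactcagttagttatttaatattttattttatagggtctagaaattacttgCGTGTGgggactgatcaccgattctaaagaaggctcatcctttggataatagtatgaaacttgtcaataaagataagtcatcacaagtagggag

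The XTH22 window held none of the motifs, the E-box included, which says only that these letters are not in these 250 bases. In the XTH23 window CGTGTG begins 94 bases before the gene start. XTH27 and XTH30 each held 1 E-box and no other motif.

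A last sequence feature joined genes on different chromosomes. The 73 bases directly before the gene start were identical in XTH17 on chromosome 1 and XTH18 on chromosome 4, while the longest identical run between any other pair of XTH promoters was 14 bases. The run, in lower case throughout, is shown once because both genes carry it.
XTH17 and XTH18: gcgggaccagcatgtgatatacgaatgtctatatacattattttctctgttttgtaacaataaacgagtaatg

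The genes nonetheless differed in level. XTH17 lay at 34.6 to 86.3 FPKM over the 8 libraries and XTH18 at 205 to 974 FPKM. Both were highest in Col-0 replicate 2 among Col-0 libraries and in bin2-1 replicate 3 among bin2-1 libraries, and neither was called in any of the 3 comparisons.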

How the data were processed

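The authors deposited 1 table of FPKM values with 2 decimals for 8 libraries, per the file headers and the labels; libraries were made from total RNA with an Illumina TrueSeq kit, per the labels' protocols. Per the submitters' processing notes, the tools included Bowtie2 and HISAT, with no role stated. Genome build, strand use and FPKM program: not given in the sources used here. Gene numbers were matched to TAIR10.1 (22798 matched, 153 did not).

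Values were tested as log2(FPKM + 1) with limma 3.58.1 in R 4.3.3 (eBayes with trend and robust, two-sided, Benjamini-Hochberg over the 18798 genes averaging 1 FPKM or more, threshold 0.05), with all 8 libraries in 1 fit. The pseudocount understates fold changes of low genes. FPKM is relative, so no absolute amount follows. Depth came from 1357 genes with lengths of 500 to 1800 nt: 87.0% to 92.3% of values of up to 5 reads were whole within 0.1 read, against 20% by chance. The script was tested on simulated data. Coding identity used Biopython 1.88. Named members are those with at least 20 FPKM in a group mean and the 8 with the largest fold change in each comparison (the higher group reaching 2 FPKM), and, per list, called genes and up to 4 with the smallest p; XTH5, XTH10, XTH20, XXT2, CSLC5, CSLC12, TCH1, TCH3, WRKY18 and WRKY33 were named after their values were seen. Members and lists were chosen with earlier results of these data known. Alternatives covered pseudocount, filter, scaling, replicate block, groups in the fit, eBayes form and leaving out each library; a threshold of 0.10 and a fit without 2 libraries were chosen after seeing the data.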

Additional observations from a re-analysis of the deposited data

How the results depend on the processing

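XTH calls were 0 in the other settings named here. In bin2-1 against Col-0 they ranged from 0 to 2 when a library was left out and were 2 (XTH22 and XTH27) at a threshold of 0.10, where 293 genes were called (1.56% of all). In MIR394A_OE against bin2-1 they ranged from 0 to 3 and were 1 (XTH27) at 0.10, with 75 genes called. The count of all genes called in bin2-1 against Col-0 (21) was 3 without a filter, 112 with the median of ratios (17 higher and 95 lower, against 10 and 11), 9 without trend and robust, 0 with the 2 groups alone, 1 without both libraries lowest on component 1 and 0 to 180 with a library left out. In MIR394A_OE against Col-0 (2) it was 0 with the 2 groups alone and 0 to 2 with a library left out. In MIR394A_OE against bin2-1 (10) it was 6 with a pseudocount of 0.1 or 0.5 FPKM, 3 without a filter, 16 with quantile scaling, 0 with the 2 groups alone, 2 without both libraries and 1 to 2307 with a library left out. The replicate number as a block gave 32, 2 and 9 calls in the 3 comparisons and 0 XTH calls, and DREB26 in bin2-1 had an adjusted p of 0.0620 with it. Correlations of deviations between libraries with the same number were -0.20 to 0.36. They were 0.36, 0.08 and 0.32 among the replicate 1 libraries, but not over 0.1 in every pair, and Col-0 replicate 2 correlated most with bin2-1 replicate 3 (0.44), so the numbers were not taken to pair the libraries.

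The XTH median in bin2-1 against Col-0 ranged from -0.44 to -0.16 with a library left out. In MIR394A_OE against bin2-1 it was 0.29 without a filter, 0.19 without both libraries and 0.19 to 0.54 with a library left out, and in MIR394A_OE against Col-0 it was -0.04 to 0.19 with a library left out. XTH22 in bin2-1 ranged from -3.97 to -2.60. The summed XTH level in bin2-1 over Col-0 was -0.71 on the log2 scale (-1.08 to -0.51). In MIR394A_OE against Col-0, signs turned for XTH6 (-0.07 to 1.13), XTH16 (-0.06 to 0.59), XTH21 (-0.26 to 0.83, and -0.18 without both libraries), XTH31 (-1.13 to 0.62), XTH32 (-0.11 to 0.88) and XTH33 (-0.08 to 0.75). The cause was not tested. The number of libraries limits precision: for XTH18 in bin2-1 the 95% interval spans -1.92 to 0.78.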
